A study of Homo sapiens with 4 samples.

Results

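The genes described here are those of the hypoxia-inducible factor (HIF) pathway, namely its oxygen sensors and transcription factors and the genes it is known to switch on outside glycolysis. They were chosen by name from a list of 33 symbols, matched to the gene symbol that the array platform gives each probe set. Of these, 31 were measured among the 24241 genes of the array, 7 sensors and factors and 24 targets, each with 1 probe set. The sensor EGLN2 and the carbonic anhydrase CA9 had no row under their name and were not analysed here.

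The samples were 4 cultures of MOLM-14, an established cell line of human acute myeloid leukaemia, grown in serum-supplemented medium. The control group, 2 cultures, was given 30 µM GSK621 for 6 h. GSK621 is a small molecule that activates AMPK, the kinase that senses falling cellular energy. The second group, also 2 cultures, first had 10 nM rapamycin for 12 h and then the same GSK621 treatment. Rapamycin blocks mTORC1, the kinase complex that couples nutrients to growth. All 4 cultures thus carried GSK621, and the comparison is of rapamycin followed by GSK621 with GSK621 alone. Untreated cells and cells given only rapamycin were not analysed here, so what rapamycin did by itself and what it did to the GSK621 response cannot be told apart. The cultures are labelled as biological replicates of a single cell line (n = 2 per treatment). The p-values of single genes set a difference against the spread between these cultures, combined with a spread estimated over all genes. The oxygen level of the cultures is not given in the sources used here, and no protein was measured.

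HIF is a pair of proteins, an oxygen-regulated alpha subunit (HIF1A or EPAS1) and the constant partner ARNT. When oxygen is present, prolyl hydroxylases of the EGLN family mark the alpha subunit, the VHL ubiquitin ligase destroys it, and the asparaginyl hydroxylase HIF1AN blocks its contact with the coactivators EP300 and CREBBP. When the alpha subunit persists, HIF binds a short DNA core near its target genes and raises transcripts for blood vessel growth, mitochondrial turnover, lipid storage, acid handling and collagen modification. In many cell types mTORC1 is known to favour synthesis of the HIF1A protein, and leukaemic cells live in the oxygen-poor bone marrow. These points are background and not results of these arrays.

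Transcripts of HIF targets were mostly lower when rapamycin preceded GSK621, with 22 of 24 measured targets below 0 and a median log2 difference of −0.29. Over all genes tested 48.8% were below 0, and the median was 0.00. The lowest target was the vasodilator peptide gene ADM, 1.73-fold lower. The mitophagy receptor BNIP3, the lipid droplet protein gene HILPDA, the collagen cross-linking oxidase LOX and the collagen prolyl hydroxylase P4HA1 were 1.40-fold to 1.48-fold lower. Among sensors and factors, HIF1A and the oxygen sensor EGLN1 were 1.25-fold and 1.26-fold lower, while the partner ARNT, the hydroxylase HIF1AN and VHL had overlapping arrays.

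The test was a linear model with variance moderation (limma) over all 24241 genes, two-sided, with Benjamini-Hochberg adjustment. At an adjusted p under 0.05 limma called 0 of the 31 members and 0% of all genes, with a smallest adjusted p of 0.43 among members. At an unadjusted p under 0.05, limma gave 14 members lower and 0 higher, where 4.2% of all genes were lower and 4.31% higher at that threshold. That count of lower members was smaller with any 1 array left out, and the share of all genes in those fits is not given here. In a fit with a variance trend and robust estimation 2 members passed an adjusted p under 0.05, HILPDA and VEGFA, both lower, where 0.223% of all genes were called lower and 0.0825% higher. The arrays of the treatments did not overlap for 21 of 31 members, all 21 lower after rapamycin, against 18.9% of all genes lower and 20.5% higher. By role these were 17 of the 24 targets and 4 of the 7 sensors and factors. CA12 is counted among them, although its array difference nearest to 0 was only −0.002. In bulk RNA, fewer cells expressing a gene and less of its RNA per cell cannot be told apart.

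**Figure D1:**
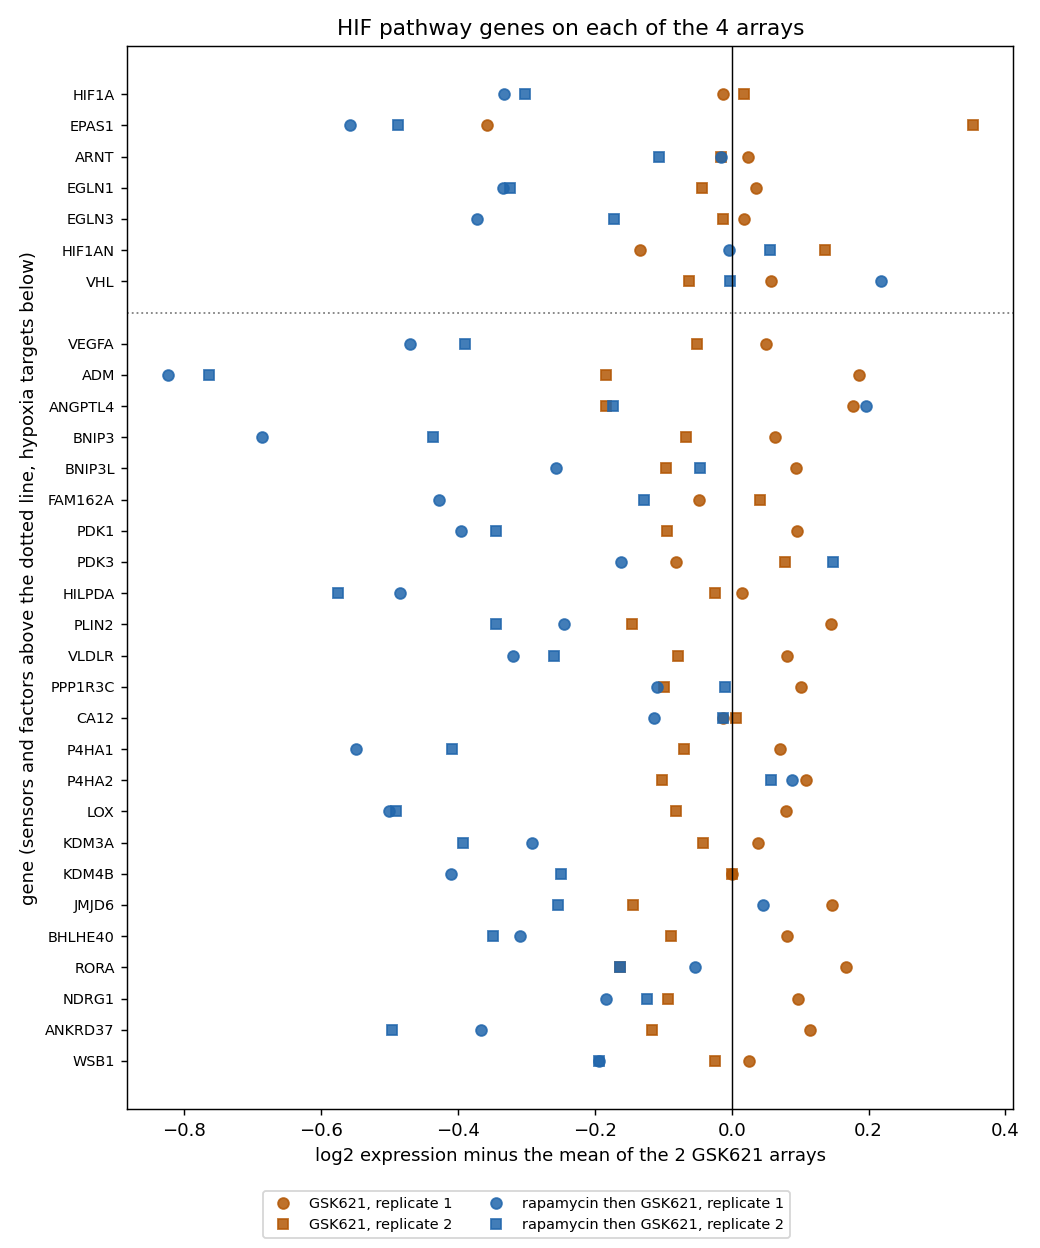
Log2 expression of the 31 measured HIF pathway genes on each array, minus the mean of the 2 GSK621 arrays of that gene. Orange marks are GSK621 and blue marks rapamycin then GSK621, with circles for replicate 1 and squares for replicate 2. The arrays did not overlap for 21 genes. For these both blue marks lie left of both orange marks, except that the nearest marks of CA12 coincide as plotted. ADM lies farthest left.

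The DNA before the gene starts is shown for the targets with the lowest values that had a promoter entry, because HIF acts on its targets through a core of 5 letters, ACGTG or GCGTG, on either strand. Sequences are from RefSeq (GRCh38.p14), cover the 250 bases before an annotated start and run 5′ to 3′ on the strand of the gene. Capitals mark the core, and CACGT and CACGC are the core read on the opposite strand. The sensor EGLN1 is shown beside the targets, and P4HA2 as the relative of P4HA1 that was not lower.
ADM: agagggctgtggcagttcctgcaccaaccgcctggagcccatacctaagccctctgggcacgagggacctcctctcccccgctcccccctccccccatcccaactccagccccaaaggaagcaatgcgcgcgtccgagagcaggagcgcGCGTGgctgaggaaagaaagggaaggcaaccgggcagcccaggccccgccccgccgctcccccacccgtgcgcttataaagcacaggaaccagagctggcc
BNIP3: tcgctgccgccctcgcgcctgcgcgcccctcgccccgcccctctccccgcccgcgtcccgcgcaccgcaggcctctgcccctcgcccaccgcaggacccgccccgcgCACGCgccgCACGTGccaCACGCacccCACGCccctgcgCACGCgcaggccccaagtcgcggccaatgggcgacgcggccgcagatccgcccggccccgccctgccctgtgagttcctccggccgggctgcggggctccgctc
LOX: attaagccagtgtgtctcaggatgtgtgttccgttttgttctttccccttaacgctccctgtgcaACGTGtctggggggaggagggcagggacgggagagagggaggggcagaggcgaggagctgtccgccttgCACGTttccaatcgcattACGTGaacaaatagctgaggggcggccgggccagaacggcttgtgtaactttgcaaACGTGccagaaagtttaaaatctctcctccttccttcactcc
P4HA1: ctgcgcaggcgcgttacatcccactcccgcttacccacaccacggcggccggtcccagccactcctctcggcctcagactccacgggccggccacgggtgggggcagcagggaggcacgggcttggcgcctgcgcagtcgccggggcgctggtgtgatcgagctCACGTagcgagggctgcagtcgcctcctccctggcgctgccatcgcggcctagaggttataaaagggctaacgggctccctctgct
ANKRD37: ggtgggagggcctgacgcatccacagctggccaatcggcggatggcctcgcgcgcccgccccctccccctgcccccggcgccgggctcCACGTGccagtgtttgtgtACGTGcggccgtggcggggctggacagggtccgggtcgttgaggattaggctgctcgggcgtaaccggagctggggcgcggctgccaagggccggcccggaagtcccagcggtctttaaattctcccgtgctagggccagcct
EGLN1: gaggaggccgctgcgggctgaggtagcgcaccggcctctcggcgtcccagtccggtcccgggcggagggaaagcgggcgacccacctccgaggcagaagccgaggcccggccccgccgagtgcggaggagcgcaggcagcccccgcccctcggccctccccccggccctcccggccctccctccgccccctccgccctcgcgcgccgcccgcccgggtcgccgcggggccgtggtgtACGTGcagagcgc
P4HA2: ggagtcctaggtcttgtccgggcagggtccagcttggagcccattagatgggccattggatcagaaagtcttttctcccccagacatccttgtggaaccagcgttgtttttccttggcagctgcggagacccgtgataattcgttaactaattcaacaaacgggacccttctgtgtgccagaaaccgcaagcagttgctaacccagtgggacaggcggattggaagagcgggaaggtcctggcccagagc
These windows lie at chr11:10304823-10305072, plus strand for ADM, at chr10:131981924-131982173, minus strand for BNIP3 and at chr5:122078260-122078509, minus strand for the farthest upstream of 3 annotated starts of LOX. They lie at chr10:73096867-73097116, minus strand for P4HA1, at chr4:185396591-185396840, plus strand for ANKRD37, at chr1:231422288-231422537, minus strand for EGLN1 and at chr5:132227092-132227341, minus strand for P4HA2.

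The core was a common feature of these windows. BNIP3 held 6 matches, which begin 143 to 104 bases before its start, of which a pair is the palindrome CACGTG read on both strands. ANKRD37 held 3 matches, and that palindrome accounts for a pair of them too. The upstream LOX window held 4 and the other LOX windows 2 each, and ADM, P4HA1 and EGLN1 held 1 each. The P4HA2 window held 0. Of the other targets with overlapping arrays and an entry in use, PPP1R3C held 4, PDK3 2, ANGPTL4 1 and RORA 0. Windows with the core and windows without it thus both occurred among the targets with overlapping arrays. CACGTG is also the site of other transcription factors, so a match is a description of letters and not a site.

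Promoter entries were used for 27 of the 33 genes, and none for VEGFA, HILPDA, VHL, JMJD6, NDRG1 and BNIP3L. NDRG1, with lower arrays, and BNIP3L, with overlapping arrays, were removed by chromosome. That filter was not applied to the genes tested or to all windows. At least 1 window held the core in 18 of 20 targets (90%) and in 4 of 7 sensors and factors (57.1%). Of the genes tested on the array that had an entry, 54.6% held it, and of all 27305 genes with an entry 47.4% did. Counted per window and not per gene, 43.2% of all 35116 windows held it. The core contains CpG, and the members' windows held a median of 24 CpG pairs against 16 for the genes tested, so base composition differed as well and its part was not tested. Among measured members with an entry in use, the core stood before 17 of the 18 genes whose arrays were lower. It stood before 3 of the 7 whose arrays overlapped. Those without it among the 7 were the targets P4HA2 and RORA and, from the sensors and factors, ARNT and HIF1AN. The split thus mixed the roles, and the part of role was not tested. Along that split the median number of CpG pairs per window was 24 and 16, so base composition differed between these groups too. EGLN3, whose arrays were lower, held no match in this window, which says only that these letters are not within it.

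Among the transcription factors, HIF1A was lower by about the same amount in both cultures. HIF1A, the alpha subunit present in most cell types, measured 9.99 and 10.02 after GSK621 (replicates 1 and 2, log2 expression, the order used throughout) and 9.67 and 9.70 after rapamycin then GSK621. The arrays did not overlap, and the spread within each treatment (SD 0.02) was a small part of the log2 difference of −0.32 ± 0.09 (SE, limma adjusted p = 0.543). EPAS1, the alpha subunit typical of endothelium and known as HIF-2 alpha, measured 5.94 and 6.65 after GSK621 and 5.74 and 5.81 after rapamycin. Its log2 difference of −0.52 ± 0.24 rested largely on 1 culture, since it came to −0.16 without GSK621 replicate 2 and to −0.88 without replicate 1. ARNT, the constant partner, measured 10.20 and 10.16 against 10.16 and 10.07, overlapping arrays with a log2 difference of −0.06 ± 0.10.

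Of the oxygen sensors, EGLN1, the main prolyl hydroxylase acting on HIF1A in normal oxygen and itself a HIF target, measured 10.00 and 9.92 after GSK621 and 9.63 and 9.64 after rapamycin. The treatments were separated by more than the spread within either, with a log2 difference of −0.33 ± 0.09 (limma adjusted p = 0.543). EGLN3, a sensor strongly induced by hypoxia in many cells, measured 3.91 and 3.88 against 3.52 and 3.72. Its arrays did not overlap, and the log2 difference of −0.27 ± 0.11 came to −0.17 without replicate 1 of rapamycin then GSK621. EGLN3 lay at percentile 20.7 of mean level, and no detection call was used. HIF1AN, which silences the transactivation domain of HIF, measured 8.35 and 8.62 against 8.48 and 8.54. The rapamycin values lay between the GSK621 values, and the log2 difference of 0.03 ± 0.13 turned to −0.11 without GSK621 replicate 1. VHL, the substrate receptor of the ligase that removes HIF alpha subunits, measured 6.59 and 6.47 against 6.75 and 6.53, again overlapping (0.11 ± 0.12).

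The ligase and cofactor genes around these factors showed smaller values. Of 18 listed genes of the VHL ligase, the coactivators and other HIF regulators, 16 were measured, and the median log2 difference was −0.04. With limma 0 of the 16 passed at an adjusted or an unadjusted p under 0.05. At the unadjusted threshold 4.2% of all genes were lower and 4.31% higher. Arrays did not overlap for 3 of the 16, lower, and 2, higher, against 18.9% of all genes lower and 20.5% higher. The ubiquitin ligase SIAH2, which degrades EGLN proteins, had −0.21 ± 0.10, and CUL2, the cullin scaffold of the VHL ligase, had −0.18 ± 0.10. The coactivator EP300 had 0.15 ± 0.09 and ELOC, the elongin that joins VHL to the cullin, had 0.16 ± 0.11. The smallest adjusted p of the list was 0.638.

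Secreted factors of vessels and lipid transport included the lowest member and one with no difference. ADM, a peptide that widens vessels, measured 8.59 and 8.22 after GSK621 and 7.58 and 7.64 after rapamycin. Both rapamycin arrays lay at least 0.58 below the lower GSK621 array, and the log2 difference was −0.79 ± 0.15 (limma adjusted p = 0.43). The GSK621 cultures differed by 0.37 between themselves. VEGFA, the main growth factor for blood vessels and also a target of the stress factor ATF4, measured 11.03 and 10.93 against 10.51 and 10.59. That is a log2 difference of −0.43 ± 0.10 with limma adjusted p = 0.482, and 0.0451 with a variance trend and robust estimation (range over all settings 0.0451 to 0.809). ANGPTL4, a secreted inhibitor of lipoprotein lipase that is also induced by PPAR nuclear receptors, measured 6.00 and 5.64 against 6.02 and 5.65. Its replicates differed far more than the treatments, with a log2 difference of 0.01 ± 0.18 that changed sign when the level-dependent trend was removed.

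Among mitochondrial targets, BNIP3 and PDK1 were lower while a relative of each had overlapping arrays. BNIP3, an outer membrane receptor that marks mitochondria for autophagy, measured 10.81 and 10.68 after GSK621 and 10.06 and 10.31 after rapamycin. The treatments did not overlap and the log2 difference was −0.56 ± 0.12 (limma adjusted p = 0.446). BNIP3L, its relative known as NIX that clears mitochondria from maturing red cells, measured 11.86 and 11.67 against 11.51 and 11.72, overlapping arrays with −0.16 ± 0.13. FAM162A, a mitochondrial protein linked to hypoxic cell death, measured 8.72 and 8.81 against 8.34 and 8.64. The higher rapamycin array was within 0.08 of the lower GSK621 array, and the log2 difference was −0.27 ± 0.13. It came to −0.12 without replicate 1 of rapamycin then GSK621 and to −0.42 without its replicate 2. PDK1, a kinase that shuts pyruvate out of the mitochondrial oxidation pathway, measured 10.40 and 10.21 against 9.91 and 9.96, with no overlap and −0.37 ± 0.11 (limma adjusted p = 0.552). PDK3, another kinase of the same enzyme complex, measured 7.54 and 7.70 against 7.46 and 7.77, and its rapamycin arrays enclosed the GSK621 arrays.

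Lipid and glycogen targets were led by HILPDA, a lipid droplet protein that inhibits the lipase ATGL. HILPDA measured 9.13 and 9.09 after GSK621 and 8.63 and 8.54 after rapamycin. Replicates lay close together in both treatments, and the log2 difference was −0.53 ± 0.10 with limma adjusted p = 0.43, and 0.0331 with a variance trend and robust estimation (range over all settings 0.0331 to 0.809). PLIN2, a coat protein of lipid droplets, measured 9.30 and 9.01 against 8.91 and 8.81, without overlap, with −0.30 ± 0.13. The difference of PLIN2 came to −0.16 without GSK621 replicate 1. VLDLR, a lipoprotein receptor, measured 8.94 and 8.78 against 8.54 and 8.60, without overlap, with −0.29 ± 0.11 (limma adjusted p = 0.577). PPP1R3C, which brings a phosphatase to glycogen, measured 4.79 and 4.59 against 4.58 and 4.68. That probe set lay below the median level of all genes, its arrays overlapped, and its log2 difference was −0.06 ± 0.12.

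PLIN2 and ANGPTL4 are also known targets of PPAR nuclear receptors, so a list of PPAR genes and their targets in fat oxidation was read beside them. Of 14 listed genes 12 were measured, 8 were above 0 and 4 below, and the median log2 difference was 0.05. Over all genes tested 48.8% were below 0, and the median was 0.00. CPT1A, which admits fatty acids to mitochondria, had 0.20 ± 0.10, PDK4 0.19 ± 0.10, the carnitine carrier SLC25A20 0.18 ± 0.09 and the receptor PPARD −0.19 ± 0.12. With limma 0 of the 12 measured genes passed at an adjusted or an unadjusted p under 0.05. At the unadjusted threshold 4.2% of all genes were lower and 4.31% higher. Arrays did not overlap for 5 of the 12, higher, and 2, lower, against 20.5% of all genes higher and 18.9% lower.

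Of the collagen and matrix genes, P4HA1 and LOX were lower and P4HA2 was not. P4HA1, an alpha subunit of the hydroxylase that stabilises collagen, measured 11.19 and 11.05 after GSK621 and 10.57 and 10.71 after rapamycin. Its arrays did not overlap, with a log2 difference of −0.48 ± 0.11 (limma adjusted p = 0.459). P4HA2, the alternative alpha subunit, measured 4.68 and 4.47 against 4.66 and 4.63, and overlapped (0.07 ± 0.11). P4HA2 lay at percentile 36 of mean level. LOX, which cross-links collagen and elastin, measured 5.76 and 5.60 against 5.18 and 5.19. The rapamycin arrays were nearly equal and both at least 0.41 lower, for a log2 difference of −0.50 ± 0.10 (limma adjusted p = 0.436). CA12, a membrane carbonic anhydrase that regulates pH, measured 4.42 and 4.44 against 4.32 and 4.42, at percentile 32.2 of mean level. It counts as not overlapping, but the array difference nearest to 0 was −0.002. The log2 difference of −0.06 ± 0.10 came to −0.013 without replicate 1 of rapamycin then GSK621.

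Oxygen-using enzymes of chromatin and splicing form a further group of targets. KDM3A, a demethylase of histone H3 lysine 9, measured 10.11 and 10.03 after GSK621 and 9.78 and 9.68 after rapamycin. KDM4B, another demethylase of the same residue, measured 7.55 and 7.55 against 7.14 and 7.30. Both were separated from their controls, with log2 differences of −0.34 ± 0.10 (limma adjusted p = 0.543) and −0.33 ± 0.10 (limma adjusted p = 0.562). JMJD6, a lysyl hydroxylase of splicing proteins, measured 6.79 and 6.50 against 6.69 and 6.39. In JMJD6 replicate 2 was the lower in both treatments, and the arrays overlapped (−0.11 ± 0.16).

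Transcriptional regulators and other targets were mostly lower by smaller amounts. BHLHE40, a repressor of the circadian clock also called DEC1, measured 10.39 and 10.22 after GSK621 and 10.00 and 9.96 after rapamycin, a log2 difference of −0.33 ± 0.11 (limma adjusted p = 0.562). ANKRD37, an ankyrin repeat protein and a sensitive hypoxia marker, measured 7.50 and 7.27 against 7.02 and 6.89. Neither gene overlapped between treatments, and the log2 difference of ANKRD37 was −0.43 ± 0.12 (limma adjusted p = 0.542). WSB1, a substrate receptor of a ubiquitin ligase, measured 10.11 and 10.06 against 9.89 and 9.89, with −0.19 ± 0.09. NDRG1, a stress-induced protein used as a hypoxia marker, measured 11.12 and 10.93 against 10.84 and 10.90. Its groups did not overlap, but the nearest arrays were 0.03 apart, and the log2 difference of −0.15 ± 0.11 came to −0.058 without GSK621 replicate 1. RORA, a nuclear receptor, measured 4.78 and 4.45 against 4.56 and 4.45, overlapping arrays in a dim probe set at percentile 35.1 of mean level.

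**Figure D2:**
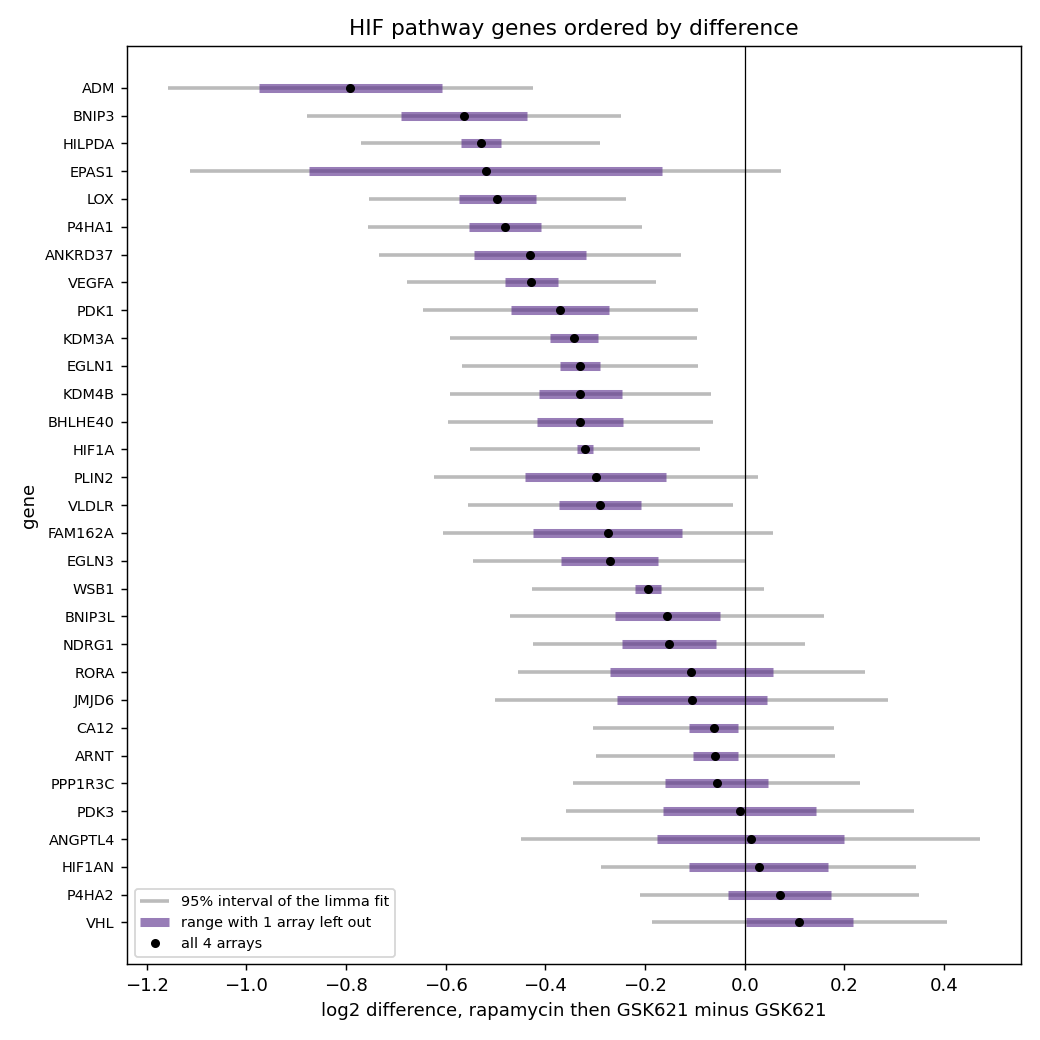
Log2 difference of each measured HIF pathway gene, rapamycin then GSK621 minus GSK621, ordered from lowest to highest. Black points use all 4 arrays, purple bars span the values with 1 array left out, and grey lines are the 95% interval of the limma fit before adjustment. The purple bar of EPAS1 runs from −0.88 to −0.16, and that of HIF1A from −0.34 to −0.31.

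The size of the difference was then compared within 6 pairs of related genes, an addition made after the values had been seen. The SE of a pair came from its own arrays on 2 degrees of freedom, without moderation, unlike the limma SE of single genes. A small pair SE is therefore itself uncertain. The log2 difference of BNIP3 minus that of BNIP3L was −0.41 ± 0.04 (SE), and that of P4HA1 minus that of P4HA2 was −0.55 ± 0.10. For PDK1 minus PDK3 it was −0.36 ± 0.22. In these 3 pairs the within-array log2 ratio did not overlap between treatments. With 1 array left out the value ran from −0.44 to −0.38 for BNIP3 and BNIP3L and from −0.64 to −0.46 for P4HA1 and P4HA2. For PDK1 and PDK3 it came to −0.18 without GSK621 replicate 1, to −0.23 without replicate 2 of rapamycin then GSK621 and to −0.54 without GSK621 replicate 2. The other pairs overlapped, with −0.01 ± 0.14 for KDM3A against KDM4B, −0.06 ± 0.10 for EGLN1 against EGLN3 and 0.20 ± 0.34 for HIF1A against EPAS1. An exact two-sided permutation test of 2 against 2 arrays cannot go below p = 0.333, which the first 3 pairs reached (0.666 after Benjamini-Hochberg adjustment over 6 pairs), so that test could not pass the threshold. P4HA2 and EGLN3 lay below the median level of all genes, and whether they stood above background is unknown.

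**Figure D3:**
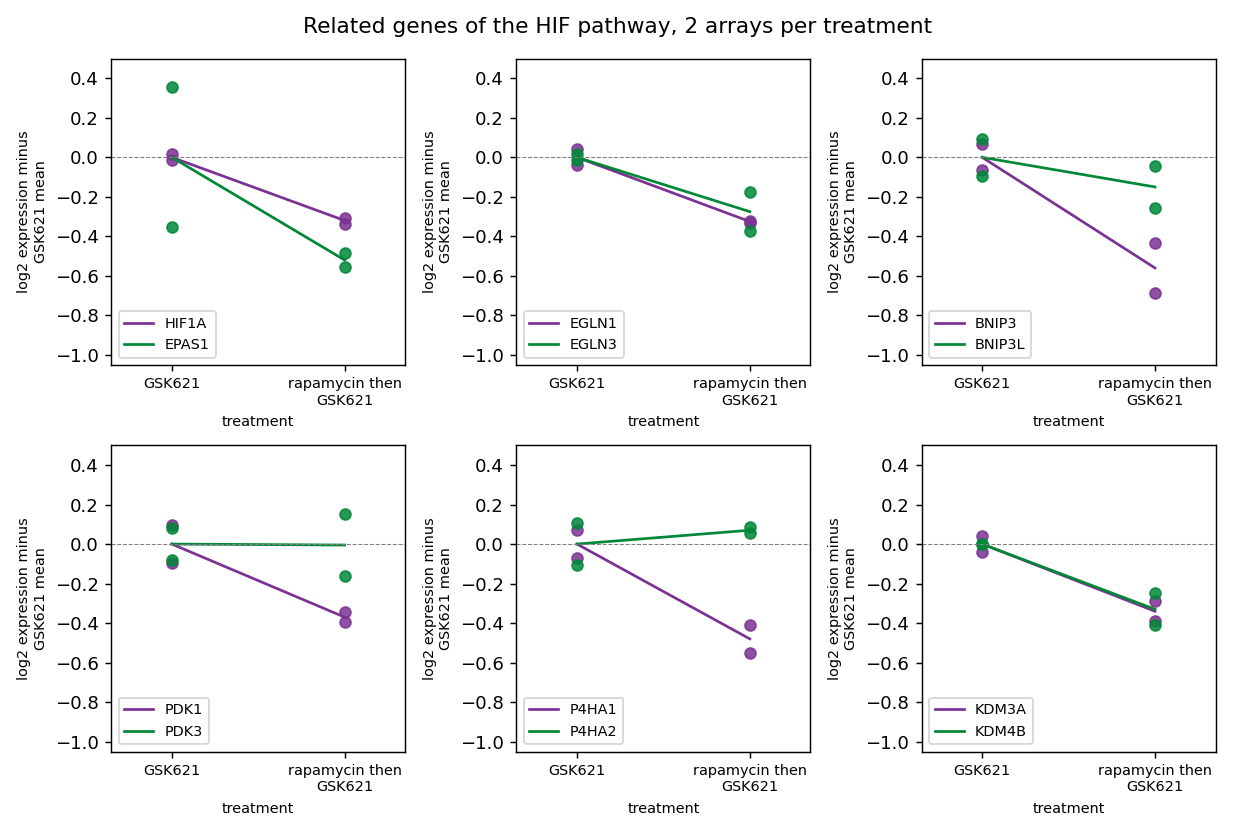
Log2 expression minus the gene's GSK621 mean in 6 pairs of related genes, with 2 arrays per treatment as points and lines joining the treatment means. The lines separate for BNIP3 and BNIP3L, PDK1 and PDK3, and P4HA1 and P4HA2, by −0.41, −0.36 and −0.55 on the log2 scale, and run close together for KDM3A and KDM4B.

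Other hypoxia targets were read from lists that do not contain the members. Of 36 further targets outside glycolysis 34 were measured, and 29 were below 0 with a median log2 difference of −0.12. At an unadjusted p under 0.05 limma gave 11 lower and 0 higher, where 4.2% of all genes were lower and 4.31% higher, and 0 passed after adjustment. With a variance trend and robust estimation in limma 2 passed an adjusted p under 0.05, CCNG2 and DDIT4 (both 0.0331), both lower, the same number as among the members. In that fit 0.223% of all genes were called lower and 0.0825% higher. The cyclin CCNG2 had −0.75 ± 0.12, the membrane protein TMEM45A −0.97 ± 0.17, the mTORC1 inhibitor DDIT4 −0.53 ± 0.10 and TET1, an oxygen-dependent DNA demethylating enzyme, −0.48 ± 0.10. Of these, DDIT4 is also an ATF4 target and CCNG2 a FOXO target. Glycolytic targets, read for comparison, had 16 of 18 measured genes below 0 and a median of −0.24, with 8 lower and 0 higher at an unadjusted p under 0.05 with limma and 0 after adjustment. Here too 2 genes, SLC2A1 (adjusted p = 0.0297) and HK2 (adjusted p = 0.0451), passed with a variance trend and robust estimation in limma. The glucose transporter SLC2A1 had −0.76 ± 0.11, the hexokinase HK2 −0.67 ± 0.13, the neuronal enolase ENO2 −0.62 ± 0.13 and the aldolase ALDOC −0.51 ± 0.10.

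**Figure D4:**
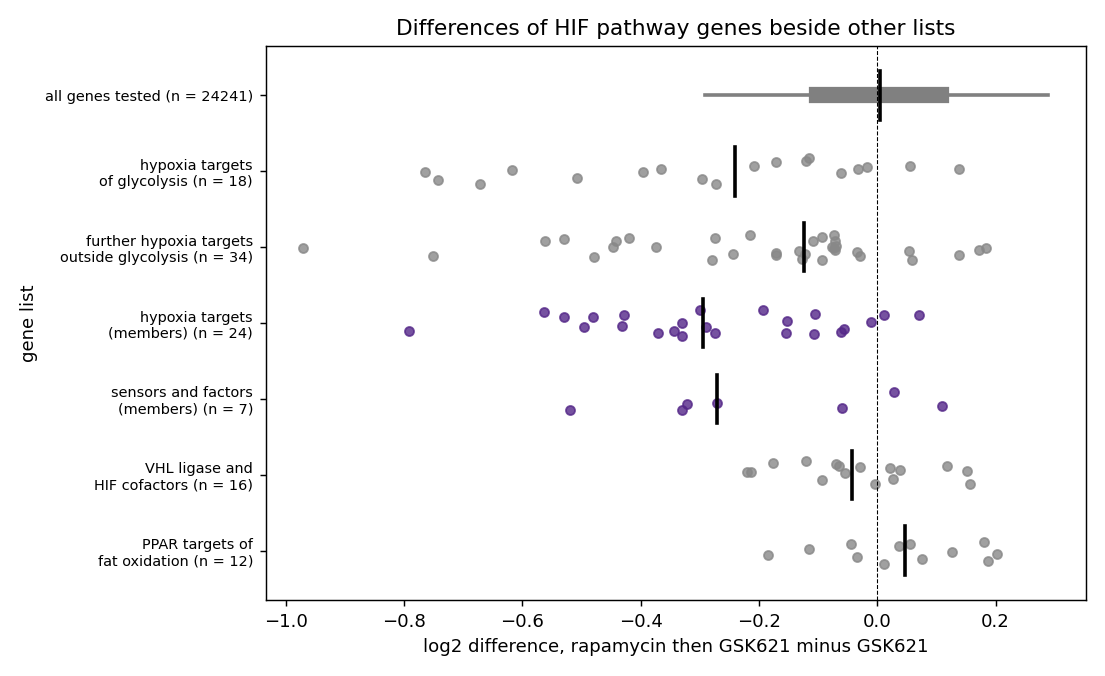
Log2 difference, rapamycin then GSK621 minus GSK621, for members (purple points) and further lists (grey points), with black bars at list medians. For all genes the thick bar spans the interquartile range and the thin bar the 5th to 95th percentiles. The median of the member targets was −0.29, that of all genes 0.00 and that of the VHL ligase and cofactor list −0.04.

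The replicates of GSK621 did not coincide for the targets. In GSK621 replicate 2, 21 of the 24 targets were lower than in replicate 1, with a median difference of −0.17, while the median over all genes was 0.00. Between the rapamycin cultures the median difference of the targets was 0.05. The median of the targets over the 4 possible pairs of arrays ran from −0.38 for both rapamycin cultures against GSK621 replicate 1 to −0.19 and −0.24 against GSK621 replicate 2. The median was below 0 against both GSK621 cultures and nearer to 0 against replicate 2.

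Signal level was a further property in which members differed. The 20 targets at or above the median level of all genes had a median log2 difference of −0.33, with 19 below 0, and the 4 dimmer targets one of −0.06. All genes at or above that level had a median of 0.01, with 46.3% below 0. The dimmer targets (PPP1R3C, CA12, P4HA2 and RORA) ranged from −0.11 to 0.07.

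Across the whole array, array medians of log2 expression were 5.37 to 5.43, and Pearson correlations of array pairs were 0.993 to 0.994 across probe sets, which are not replicates. Precision is limited by the number of arrays, and the median SE of a log2 difference was 0.11. Of 12 myeloid markers, 10 were measured, all at or above the median level, including LYZ, CD68, FLT3 and ELANE. Of 18 measured markers of lymphoid, erythroid, epithelial and stromal cells, 7 were at or above that level. Of the 28 measured markers of all types, 0 passed at an adjusted p under 0.05, and 1, FLT3, at an unadjusted one. FLT3, a receptor kinase of blood progenitors, was higher after rapamycin, with 10.19 and 10.18 against 10.54 and 10.52 and a log2 difference of 0.34 ± 0.09 (limma adjusted p = 0.535). Of the myeloid markers, 7 of 10 were above 0 and 3 below, with a median log2 difference of 0.10. Over all genes tested 48.8% were below 0, and the median was 0.00. The arrays did not overlap for 7 of the 10 markers, with 5 higher and 2, MPO and MEIS1, lower. Of all genes 18.9% were lower and 20.5% higher without overlap. The part of these markers in the values of the HIF targets was not tested.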

How the data were processed

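Total RNA of 4 MOLM-14 cultures was measured on Affymetrix whole-transcript arrays, per the labels' protocols. R 2.15.3 and Partek were used, per the submitters' processing notes, with no role given, and how background was corrected, arrays normalized and probes summarised is not given in the sources used here. Per probe set and array the authors deposited 1 value, taken as log2 expression from its range of 1.84 to 13.28. The platform annotation gave 1 symbol to 24244 of 25582 probe sets and none to 1338. The brightest probe set stood for each of 3 genes with several, none a member, which left 24241 genes.

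Groups and replicate numbers came from the sample titles. The deposited log2 values were fitted without filter or pseudocount in limma 3.58.1 (lmFit, eBayes) under R 4.3.3, with 2 residual and 3.39 prior degrees of freedom. On simulated data of 24241 genes, the fit recovered 68 of 100 genes changed by 1 and 94 of 100 changed by −2 (log2), with 5 false calls. The simulated noise followed the model of the fit, and these changes were larger than that of any member (lowest −0.791). Sensitivity to changes of the size seen in the members was not tested.

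The members and lists were chosen with earlier results of these data known, so list counts and medians are descriptions. All members are named, and of each further list the 4 genes with the smallest p. The cell type markers named were picked after their values were seen. Alternatives were quantile normalization, centring, a variance trend with robust estimation, no moderation, a filter on dim genes, a replicate block and leaving out each array. Removal of a level-dependent trend (cyclic loess) and the pairs of related genes were added after seeing the data.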

Additional observations from a re-analysis of the deposited data

How the results depend on the processing

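The median log2 difference of the targets stayed between −0.35 and −0.23 with any 1 array left out and between −0.33 and −0.29 under quantile normalization, centring, the filter on dim genes, the replicate block and removal of the level-dependent trend. That of the sensors and factors, a median of 7 genes, ran from −0.33 to −0.16 with 1 array left out and came to −0.19 with genes at or above the median level alone, where EGLN3 drops out. With 1 array left out, the lone array of its group was assumed to vary like the other group. The number of genes at an adjusted p under 0.05 was 0 in the limma fit, 74 with a variance trend and robust estimation, 1 without moderation and 3 with genes at or above the median level. The number of members past it was 2 with a variance trend and 0 under the other alternatives. The 14 members lower at an unadjusted p under 0.05 came to 8 without moderation and to 8 to 13 with 1 array left out. With the replicate block the count was 15, and 0 genes passed adjustment. The labels name no link between same-numbered cultures beyond the number. The correlation of their deviations was 0.0923 over all genes, which cannot show whether they were handled together. Signs turned with 1 array left out for HIF1AN (range −0.11 to 0.17), ANGPTL4 (−0.17 to 0.20), PDK3 (−0.16 to 0.14), PPP1R3C (−0.16 to 0.047), P4HA2 (−0.034 to 0.17), JMJD6 (−0.26 to 0.044) and RORA (−0.27 to 0.057), all with overlapping arrays. ANGPTL4 also came to −0.001 when the level-dependent trend was removed. The cause of these changes was not tested. Whether dim probe sets stood above background is unknown without detection calls.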
